A study of Mus musculus with 8 samples.

Results

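The genes described here make, recycle and break down purines, and were followed in liver of 8 male C57BL/6 mice aged 92 to 101 days. The 4 MTAP+/- mice carry 1 intact copy of Mtap, the gene of methylthioadenosine phosphorylase, and the 4 MTAP+/+ mice are wild-type. How the altered allele was made, and whether animals shared a litter or a collection time, is not stated in the labels. Members came from a list of 37 genes, each read by the probe set of highest mean among those annotated with that symbol alone. By this rule 34 of the 37 were measured among 18193 genes, while Impdh2, Urad and Slc28a2 had no probe set of their own and were not analysed here. All values are RMA log2 signals on 1 Affymetrix array per liver, and a log2 change is MTAP+/- minus MTAP+/+.

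Cells build purines on phosphoribosyl pyrophosphate (PRPP) in a chain of enzymes that ends at inosine monophosphate (IMP), from which separate branches lead to AMP and GMP. Salvage enzymes shorten this route by joining free bases or nucleosides back to phosphate and ribose. MTAP feeds it directly, because it splits methylthioadenosine into a sugar phosphate and adenine, and adenine phosphoribosyltransferase (APRT) turns that adenine into AMP. Liver is a main site of purine synthesis for the body, and in mice it also holds uricase, which degrades the uric acid that human liver cannot break down. The question is whether transcripts of these enzymes differ between wild-type livers and livers with a single intact Mtap copy.

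Mtap was lower in every MTAP+/- liver. Its representative probe set read 6.72, 6.92, 6.99 and 6.95 in MTAP+/- replicates 1 to 4 and 7.82, 7.57, 7.69 and 7.69 in MTAP+/+ replicates 1 to 4, which is 57.6% of the wild-type level. The other 3 Mtap probe sets, dimmer on average, were at 49.9, 35.3 and 32.2%. None of the 4 had overlapping groups, and in limma over all probe sets their adjusted p ran from 0.00443 to 0.0414. Hepatocyte markers were high in all livers, with means over 6 genes between 13.33 and 13.61. Erythroid markers averaged between 4.58 and 4.97 over 4 genes of unlike level, from 2.49 for Hba-a1 to 9.19 for Alas2. In a principal component analysis over all probe sets, on the component with 28.3% of the variance, MTAP+/- replicate 2 and MTAP+/+ replicates 1, 2 and 3 scored from 3.58 to 35.57, and the other 4 livers from -24.91 to -23.43. Evening-phase clock genes minus night-phase clock genes (14 genes) gave 1.04 to 2.09 in MTAP+/- and -0.099 to 0.78 in MTAP+/+ livers (means 1.78 ± 0.49 and 0.34 ± 0.36, SD, n = 4, exact two-sided permutation p = 0.0286, the smallest possible). The part of these array and clock differences in the purine values was not tested.

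No purine gene passed the threshold of 0.05 after Benjamini-Hochberg adjustment over all genes in limma (0 of 34, smallest adjusted p = 0.284). Over all genes 9 of 18193 passed, or 0.0495%. Of the members' 68 probe sets 0 passed in a limma fit over all probe sets other than controls, of which 16 passed, or 0.0355%. At an unadjusted limma p under 0.05 stood 7 of the 34, against 9.14% of all genes. Of these 7, 4 were higher and 3 lower in MTAP+/- liver, against 4.4% and 4.74% of all genes. They were Prps1, Prps2, Ampd3 and Uox on the higher side and Prpsap2, Gmps and Ada on the lower side. All animals of a genotype lay to the same side of all animals of the other for 5 members (Prps2, Ampd3 and Uox above, Gmps and Ada below), against 4.64% of all genes (1.95% above and 2.7% below). The log2 change was below 0 in 23 of 34 members, with a median of -0.056, and below 0 in 54.7% of all genes, with a median of -0.017. Leaving out MTAP+/- replicate 4 or MTAP+/+ replicate 1 left 4 members at an unadjusted p under 0.05, namely Ada, Ampd3, Gmps and Prps2. Without MTAP+/- replicate 2 these 4 remained and Adsl, Gart and Ak4 joined them. The share of all genes at that p was not counted in these fits. Over all genes, the number past the adjusted threshold was 3 without MTAP+/- replicate 1 and 5 without MTAP+/+ replicate 1. It was 4 without MTAP+/+ replicate 2, 5 without MTAP+/+ replicate 3 and 20 without MTAP+/+ replicate 4.

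**Figure D1:**
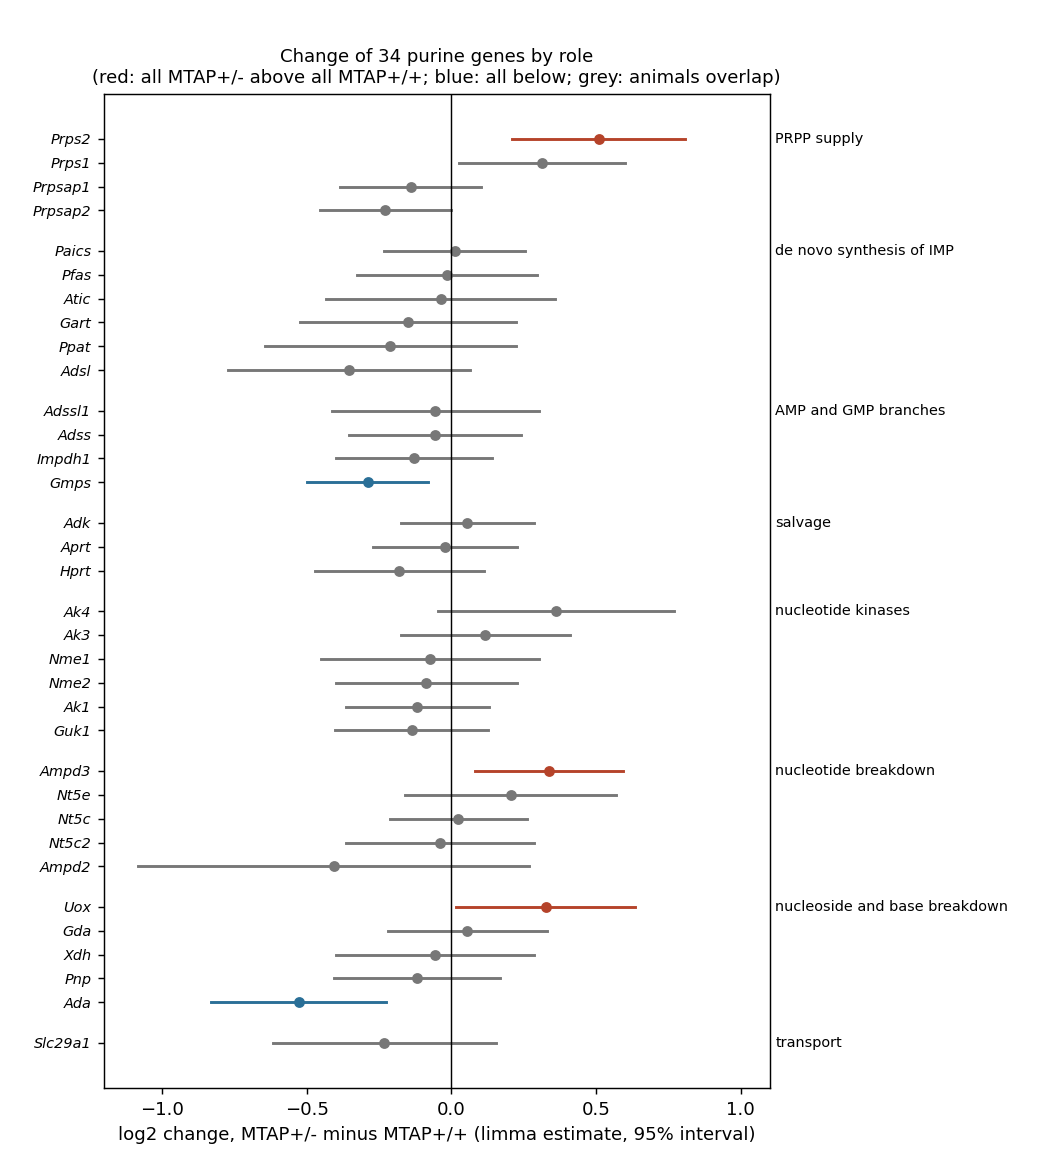
Log2 change (x axis, MTAP+/- minus MTAP+/+) of the 34 measured genes, in blocks by role, with the limma estimate as a point and its 95% interval as a line. Red marks the 3 genes whose MTAP+/- animals all lie above the MTAP+/+ animals (Prps2, Ampd3, Uox), blue the 2 whose MTAP+/- animals all lie below (Ada, Gmps), and grey those whose animals overlap.

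Enzymes that supply PRPP gave the largest positive value among the members. PRPP synthetases join ribose phosphate and pyrophosphate from ATP, and their associated proteins, encoded by Prpsap1 and Prpsap2, bind the same complex and restrain it. Prps2 read 7.85, 8.17, 7.78 and 7.95 in MTAP+/- replicates 1 to 4 and 7.34, 7.14, 7.65 and 7.58 in MTAP+/+ replicates 1 to 4. Every MTAP+/- liver was above every MTAP+/+ liver, and the closest values were 7.78 and 7.65. The log2 change was 0.51 ± 0.14 (SE), or 142% of the wild-type level (95% interval 116 to 175), with an adjusted p of 0.305 and an unadjusted p of 0.00325 in limma. It had an unadjusted p under 0.05 under all 16 alternatives, and lay between 0.41 and 0.58 when 1 array was left out. The other Prps2 probe sets, both dimmer, gave 0.26 and 0.15, and the mean over its probe sets gave 0.31, in the same direction but smaller.

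Prps1, the paralog of Prps2 and likewise on the X chromosome, gave a smaller value in the same direction. Its signals were 8.37, 8.53, 8.61 and 8.64 in MTAP+/- and 8.13, 7.92, 8.42 and 8.41 in MTAP+/+ replicates 1 to 4. MTAP+/- replicate 1 lay below MTAP+/+ replicates 3 and 4, so the groups overlapped. Prps1 had a log2 change of 0.31 ± 0.13 (SE, adjusted p = 0.5), and 0.21 without MTAP+/+ replicate 2, which had the lowest signal of both synthetase genes. The associated protein genes were on the other side of 0. Prpsap2 read 7.58, 7.50, 7.82 and 7.69 in MTAP+/- and 7.96, 7.92, 7.82 and 7.80 in MTAP+/+ replicates 1 to 4, a log2 change of -0.23 ± 0.10 (SE, adjusted p = 0.543), with MTAP+/- replicate 3 inside the wild-type range. Its unadjusted p stayed under 0.05 in 4 of 16 alternatives, the fewest of the 7 genes under 0.05. Prpsap1 was at -0.14 (adjusted p = 0.764). Since Prps1 and Prps2 lay on the same side, the RefSeq promoter windows of both are shown, from 250 bases before to 50 after the annotated start in GRCm38.p6 (Prps1 chrX:140456353-140456652 on the plus strand, Prps2 chrX:167382700-167382999 on the minus strand). Capitals would mark the E-box CACGTG, a hexamer bound by MYC and by the clock activators and identical on both strands, and neither window holds it.
Prps1: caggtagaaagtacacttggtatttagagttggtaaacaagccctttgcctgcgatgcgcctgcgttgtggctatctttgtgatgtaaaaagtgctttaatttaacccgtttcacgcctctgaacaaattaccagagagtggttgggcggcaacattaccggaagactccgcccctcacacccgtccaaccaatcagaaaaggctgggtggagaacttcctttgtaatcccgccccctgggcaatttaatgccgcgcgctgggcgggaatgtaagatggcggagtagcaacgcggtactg
Prps2: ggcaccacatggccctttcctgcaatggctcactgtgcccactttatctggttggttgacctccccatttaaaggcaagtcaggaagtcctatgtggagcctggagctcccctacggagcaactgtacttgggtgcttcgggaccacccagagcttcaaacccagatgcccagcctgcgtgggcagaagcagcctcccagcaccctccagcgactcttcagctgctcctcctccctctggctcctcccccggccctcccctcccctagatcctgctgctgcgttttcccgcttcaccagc

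**Figure D2:**
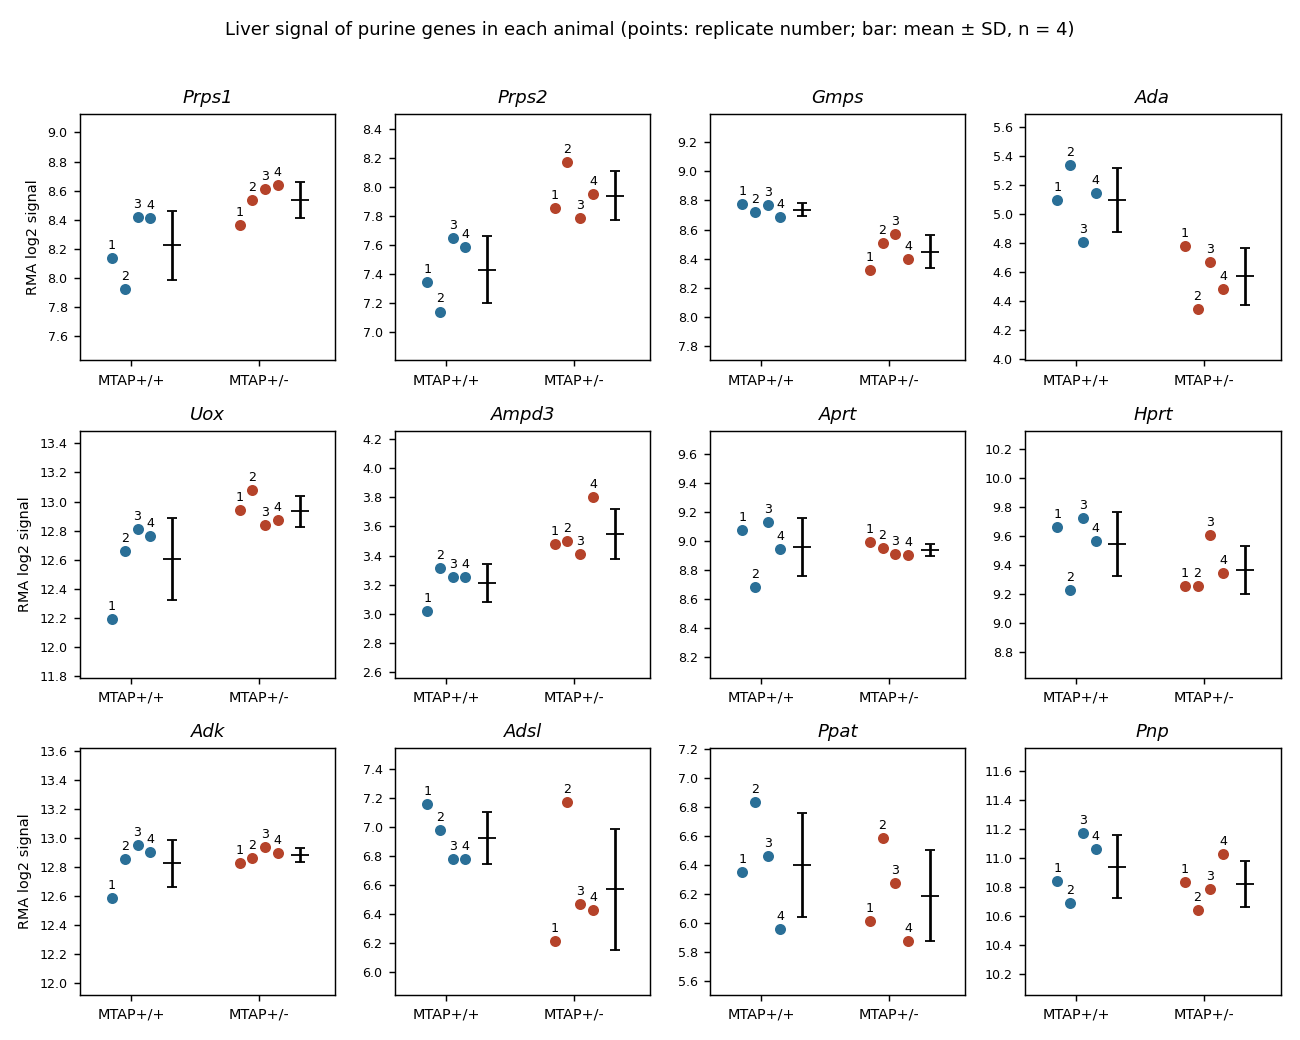
RMA log2 signal (y axis, every panel spanning the same range) of 12 purine genes in MTAP+/+ (blue) and MTAP+/- (red) livers, 1 point per animal with its replicate number, and the mean ± SD (n = 4) as a black bar. Prps2, Ampd3 and Uox show MTAP+/- above MTAP+/+ in every animal, Gmps and Ada the reverse, and the salvage genes Aprt, Hprt and Adk show overlapping animals.

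Genes of the chain from PRPP to IMP gave small values or values that hung on single animals. Of the 6 measured genes 0 passed the threshold and 0 had an unadjusted p under 0.05, and the changes ran from -0.35 to 0.012 with 5 of 6 below 0. Adsl, whose enzyme removes fumarate in both the chain and the AMP branch, was lowest. It read 6.22, 7.17, 6.47 and 6.43 in MTAP+/- and 7.16, 6.98, 6.78 and 6.78 in MTAP+/+ replicates 1 to 4. MTAP+/- replicate 2 was the highest of all 8 livers, and the other 3 MTAP+/- livers were below all wild-type livers. Adsl had a log2 change of -0.35 ± 0.19 (SE, adjusted p = 0.624), which was -0.55 (adjusted p = 0.168) without MTAP+/- replicate 2 and -0.24 (adjusted p = 0.839) without MTAP+/- replicate 1, the lowest liver. Gart, whose enzyme carries several steps of the chain, was at -0.15. It was at -0.32 without that animal, -0.057 without MTAP+/- replicate 1 and -0.069 without MTAP+/+ replicate 1.

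Ppat encodes the amidotransferase that commits PRPP to purines, and its probe sets disagreed. The one used gave -0.21 (adjusted p = 0.81), and another of nearly the same mean signal gave 0.37, from 6.50, 6.37, 6.50 and 6.49 in MTAP+/- and 5.54, 6.20, 6.25 and 6.40 in MTAP+/+ replicates 1 to 4. Leaving out 1 array moved the one used from -0.36 without MTAP+/+ replicate 4 to -0.065 without MTAP+/+ replicate 2. The other is of a kind that matches several transcripts, and its groups overlapped. That probe set had an unadjusted p of 0.05 and an adjusted p of 0.594 in limma over all probe sets. Pfas, the next amidotransferase of the chain, was at -0.014. Paics, a bifunctional enzyme of the middle of the chain, was at 0.012 (95% interval 85.2 to 119% of wild-type). Atic, which closes the ring to IMP, was at -0.036, while its dimmer probe set gave -0.58 with values from 3.60 to 5.56 in MTAP+/- and from 4.32 to 5.50 in MTAP+/+ livers.

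Both Paics and Atic hold the E-box in their promoter windows, as do Ak4, Ampd3, Nme1, Nt5c2 and Slc29a1 among the measured members and Impdh2 among those not measured. That is 8 of 35 member genes with a window (22.9%), against 8.09% of 27025 genes. By window it is 9 of 63 member windows (14.3%) against 7.15% of 32851. A gene counts if any of its windows holds the E-box, so genes with several windows have more chances. The 7 measured holders had changes from -0.23 to 0.36, 3 above and 4 below 0 (median -0.036), and the 25 measured members with a window and no E-box from -0.53 to 0.51 (median -0.12). The windows of Paics (chr5:76951052-76951351, plus strand) and Atic (chr1:71556906-71557205, plus strand) are shown because they belong to the chain, with the E-box in capitals. It begins 203 bases before the start of Paics and 7 bases before that of Atic. Neither gene had an unadjusted p under 0.05 between genotypes. A match describes the letters and shows no binding.
Paics: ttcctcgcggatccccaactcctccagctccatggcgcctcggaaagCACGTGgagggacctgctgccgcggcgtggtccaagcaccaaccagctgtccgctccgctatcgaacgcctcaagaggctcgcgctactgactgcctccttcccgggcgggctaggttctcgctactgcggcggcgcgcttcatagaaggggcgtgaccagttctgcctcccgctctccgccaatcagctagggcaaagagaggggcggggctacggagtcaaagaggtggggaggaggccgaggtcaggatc
Atic: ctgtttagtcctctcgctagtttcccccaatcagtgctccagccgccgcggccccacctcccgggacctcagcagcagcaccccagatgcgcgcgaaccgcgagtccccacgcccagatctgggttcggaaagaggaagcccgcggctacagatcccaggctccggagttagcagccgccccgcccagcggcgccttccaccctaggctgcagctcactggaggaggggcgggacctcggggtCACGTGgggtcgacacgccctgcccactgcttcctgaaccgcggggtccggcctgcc

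MTAP+/- replicate 2 was the highest of the MTAP+/- animals in 5 of the 6 chain genes, and MTAP+/- replicate 1 the lowest in 5 of the 6. The median deviation of the chain genes from their 8-liver means was 0.28 in MTAP+/- replicate 2, 0.22 in MTAP+/+ replicate 1 and between 0.012 and 0.078 in MTAP+/+ replicates 2, 3 and 4. It was -0.26, -0.022 and -0.17 in MTAP+/- replicates 1, 3 and 4. The 4 livers with positive scores on that principal component thus had the 4 highest medians. MTAP+/- replicate 2 also had the highest mean of 6 macrophage markers (8.60, against 7.84 to 8.43 in the other MTAP+/- and 7.69 to 8.03 in MTAP+/+ livers). Of these 6 markers 4 were higher in MTAP+/- liver, 2 with an unadjusted limma p under 0.05. In that animal Marco (9.97) and Adgre1 (8.93) had their highest signals of the 8 livers, and Clec4f (7.06) and Vsig4 (8.20) their lowest. The mean of 4 markers of dividing cells was 4.76 in MTAP+/- replicate 2 and 3.64 to 4.21 in the other MTAP+/- livers, and 3.69 to 5.50 in MTAP+/+ livers. The part of these markers in the chain genes was not tested.

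**Figure D3:**
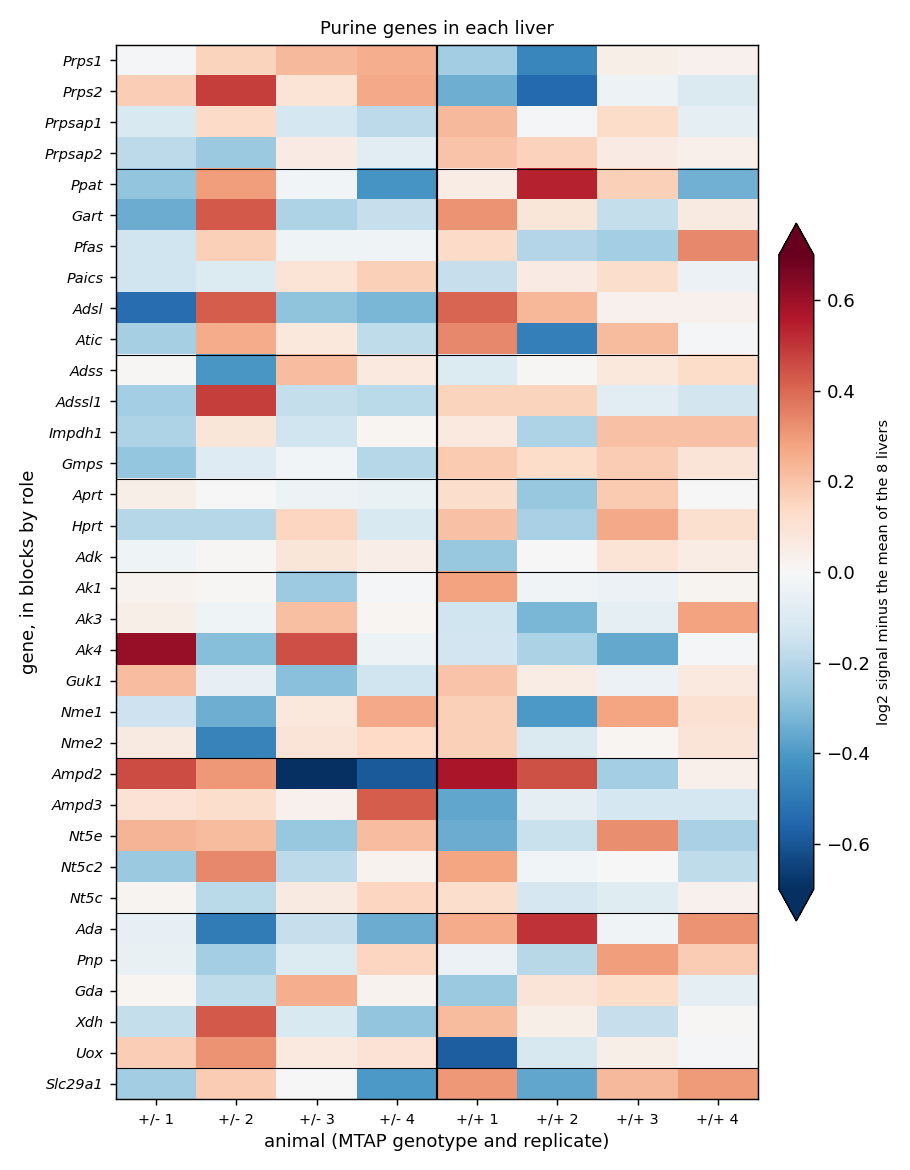
Log2 signal of each of the 34 genes (rows, in blocks by role) minus its mean over the 8 livers, by animal (columns, MTAP+/- left and MTAP+/+ right of the line), with red above and blue below that mean and colours capped at 0.7. Prps1 and Prps2 are mostly red on the left and Ada mostly red on the right, while chain genes such as Adsl and Gart are red in MTAP+/- replicate 2 alone of its group.

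The branch to GMP held the member with the smallest spread. Gmps encodes GMP synthase, the last enzyme of that branch, and read 8.32, 8.51, 8.57 and 8.39 in MTAP+/- and 8.78, 8.72, 8.77 and 8.68 in MTAP+/+ replicates 1 to 4. The MTAP+/+ animals lay within a narrow band and all MTAP+/- animals below it. The log2 change was -0.29 ± 0.095 (SE), or 81.9% of wild-type (70.9 to 94.6), with an adjusted p of 0.373 and an unadjusted p of 0.0113 in limma. Its SD within genotypes was 0.084, the lowest of the 34 members. The other Gmps probe sets, dimmer by far, gave -0.054 and 0.078, and the mean over the probe sets gave -0.088. Impdh1, an isoform of the dehydrogenase that opens the GMP branch, was at -0.13 (adjusted p = 0.812).

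The synthetases that open the AMP branch lay close to 0. Adss, the widely expressed form, was at -0.056 and Adssl1, the form known from muscle, at -0.055 (adjusted p = 0.939 and 0.952). Adssl1 read 7.88 in MTAP+/- replicate 2 and between 7.15 and 7.55 in the other livers. Its change was -0.23 without that animal.

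For salvage enzymes, which include the step that takes up adenine made by MTAP, the differences lay within the spread among animals. Aprt read 8.99, 8.95, 8.91 and 8.90 in MTAP+/- and 9.07, 8.69, 9.13 and 8.95 in MTAP+/+ replicates 1 to 4. The MTAP+/- animals sat within the wild-type range, with an SD of 0.040 against 0.20. Aprt was at 98.6% of the wild-type level, with a 95% interval of 83 to 117%, and its other probe set gave -0.085 on the log2 scale. Mtap itself was at 32.2 to 57.6% by its 4 probe sets, and the interval for Aprt does not reach a change of that size.

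Adk, adenosine kinase, returns adenosine to AMP and is abundant in liver. It read 12.82, 12.86, 12.94 and 12.90 in MTAP+/- and 12.59, 12.86, 12.95 and 12.91 in MTAP+/+ replicates 1 to 4, at 104% of wild-type (88.6 to 122). Only MTAP+/+ replicate 1 stood below the rest. The next brightest Adk probe set gave 0.039, in the same range. Among 4 dim Adk probe sets the log2 changes were 0.11, 0.91, 0.53 and -0.23. The largest came from 6.35, 6.48, 5.74 and 5.47 in MTAP+/- and 4.79, 6.00, 5.31 and 4.29 in MTAP+/+ replicates 1 to 4, with overlapping groups. In limma over all probe sets that one had an unadjusted p of 0.0219 and an adjusted p of 0.503. Hprt, which salvages hypoxanthine and guanine, read 9.25, 9.25, 9.60 and 9.34 in MTAP+/- and 9.66, 9.22, 9.72 and 9.57 in MTAP+/+ replicates 1 to 4. Its log2 change was -0.18 ± 0.13 (SE, adjusted p = 0.745), and MTAP+/+ replicate 2 was the lowest liver. Without that animal the change was -0.29, with an unadjusted p of 0.0366 and an adjusted p of 0.509 in limma.

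Kinases that interconvert nucleotides had 0 of 6 members at an unadjusted p under 0.05. Ak4, a mitochondrial adenylate kinase family member, read 8.76, 7.86, 8.60 and 8.12 in MTAP+/- and 8.02, 7.93, 7.80 and 8.14 in MTAP+/+ replicates 1 to 4. MTAP+/- replicates 1 and 3 were above all other livers and the rest overlapped. Ak4 had a log2 change of 0.36 ± 0.19 (SE, adjusted p = 0.606), and 0.52 without MTAP+/- replicate 2. It was 0.22 without MTAP+/- replicate 1 and 0.27 without MTAP+/- replicate 3, and 0.13 with the mean of its probe sets. The 4 other Ak4 probe sets gave -0.081 to 0.24. Ak3, which phosphorylates AMP with GTP in mitochondria, was at 0.12, and Ak1, the cytosolic form, at -0.12. Guanylate kinase (Guk1) was at -0.14. The nucleoside diphosphate kinase genes Nme1 and Nme2 were at -0.073 and -0.086. Their sequences are alike, so their probe sets may not read them apart.

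Genes that take nucleotides apart differed in direction. Ampd3, the AMP deaminase isoform known from red cells, read 3.48, 3.50, 3.41 and 3.80 in MTAP+/- and 3.02, 3.32, 3.25 and 3.25 in MTAP+/+ replicates 1 to 4. All MTAP+/- livers were above all MTAP+/+ livers, but every value lay below the array medians of 3.91 to 3.97, and without detection calls this does not show expression. Ampd3 had a log2 change of 0.34 ± 0.12 (SE, adjusted p = 0.403). Erythroid markers averaged 4.77 to 4.97 in MTAP+/- and 4.58 to 4.95 in MTAP+/+ livers, with 3 of 4 higher and 0 at an unadjusted limma p under 0.05. Their part in the Ampd3 value was not tested.

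Ampd2, the isoform known as the main AMP deaminase of liver, varied most among animals by the probe set used, which is marked x. Its signals were 7.75, 7.60, 6.31 and 6.71 in MTAP+/- and 7.86, 7.74, 7.05 and 7.33 in MTAP+/+ replicates 1 to 4. In both genotypes replicates 1 and 2 were above replicates 3 and 4. The SD within genotypes was 0.56, the highest of the 34 members. A log2 change of -0.41 ± 0.31 (SE) had an adjusted p of 0.753 in limma, and leaving out 1 array gave -0.63 to -0.15. With the replicate number as a block the unadjusted p was 0.0191 and the adjusted p 0.376. The other Ampd2 probe set gave -0.11 ± 0.16 (SE). It read 5.64, 6.09, 5.61 and 5.86 in MTAP+/- and 6.19, 5.88, 5.53 and 6.04 in MTAP+/+ replicates 1 to 4. That order of replicates was absent from it in both genotypes. Of the nucleotidases, Nt5e, the cell-surface enzyme that makes adenosine from AMP, was at 0.20 (0.079 with the mean of its probe sets), and the cytosolic Nt5c2 and Nt5c at -0.040 and 0.024.

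The last steps, from nucleosides to allantoin, held the largest negative and a positive value. Ada, adenosine deaminase, turns adenosine into inosine. It read 4.78, 4.34, 4.67 and 4.49 in MTAP+/- and 5.09, 5.34, 4.81 and 5.14 in MTAP+/+ replicates 1 to 4. Every MTAP+/- liver was below every MTAP+/+ liver, with 4.78 and 4.81 as the closest values. The log2 change was -0.53 ± 0.14 (SE), or 69.4% of wild-type (56.3 to 85.6), with an adjusted p of 0.284 and an unadjusted p of 0.00283 in limma, the smallest of the members. The unadjusted p stayed under 0.05 in all 15 alternatives that measured it, and the change between -0.62 and -0.45 when 1 array was left out. Ada was dim, with a mean signal of 4.83 at percentile 46.3 of all genes. It was therefore not tested with dim genes left out. In bulk liver fewer cells of a type and less RNA per cell cannot be told apart. Markers of T and B cells, which are rich in this enzyme, averaged 4.56 to 4.68 in MTAP+/- and 4.38 to 4.62 in MTAP+/+ livers (exact two-sided permutation p = 0.257, n = 4 per group). Of these markers 5 of 6 were higher, against 8247 of 18193 genes, and 0 had an unadjusted limma p under 0.05. They were dim, with means from 3.80 (Ms4a1) to 5.40 (Cd4) beside array medians of 3.91 to 3.97. Their part in the Ada value was not tested.

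Uox, uricase, read 12.94, 13.08, 12.84 and 12.87 in MTAP+/- and 12.19, 12.66, 12.81 and 12.76 in MTAP+/+ replicates 1 to 4. The MTAP+/- livers were all above the MTAP+/+ livers, with 12.84 and 12.81 as the nearest values, and MTAP+/+ replicate 1 stood lowest. The log2 change of 0.33 ± 0.14 (SE, adjusted p = 0.518) was 0.19 without that animal. Enzymes between Ada and Uox gave smaller values. Pnp, which splits inosine and guanosine, read 10.83, 10.64, 10.78 and 11.03 in MTAP+/- and 10.84, 10.69, 11.17 and 11.06 in MTAP+/+ replicates 1 to 4, a log2 change of -0.12 (adjusted p = 0.846). Xdh, the xanthine oxidoreductase that makes uric acid, read 8.49, 9.08, 8.55 and 8.38 in MTAP+/- and 8.87, 8.69, 8.49 and 8.66 in MTAP+/+ replicates 1 to 4. Its log2 change was -0.057 (75.9 to 122% of wild-type), and MTAP+/- replicate 2 was the highest liver. Gda, guanine deaminase, was at 0.056.

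Slc29a1, the equilibrative transporter that lets nucleosides cross the cell membrane, read 7.57, 7.99, 7.81 and 7.41 in MTAP+/- and 8.12, 7.45, 8.04 and 8.11 in MTAP+/+ replicates 1 to 4. MTAP+/+ replicate 2 lay among the lowest livers and the other MTAP+/+ livers above all MTAP+/- livers. The log2 change was -0.23 ± 0.18 (SE, adjusted p = 0.753), and lay between -0.39 without MTAP+/+ replicate 2 and -0.14 without MTAP+/- replicate 4.

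**Figure D4:**
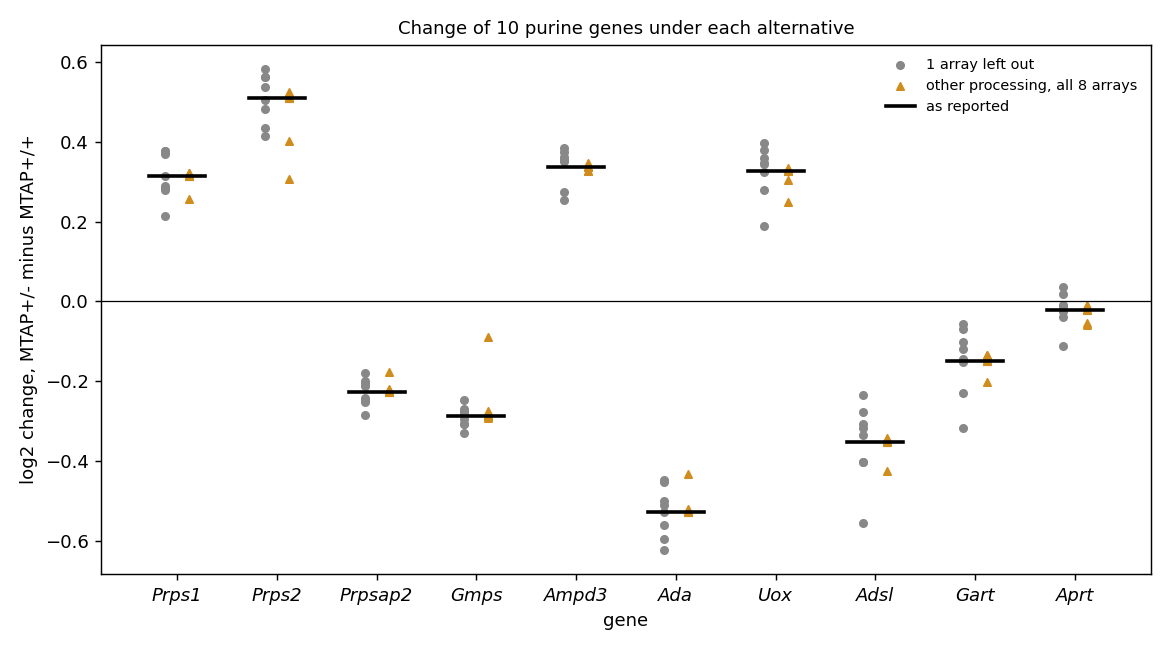
Log2 change (y axis) of 10 purine genes as reported (black bar), with 1 array left out (grey points) and under the other processing alternatives (orange triangles). Prps2 and Ada stay away from 0 throughout, Gmps moves to -0.088 when its probe sets are averaged, Uox to 0.19 without MTAP+/+ replicate 1, and Aprt lies around 0.

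For most members the data limit how large a difference could be. The 95% interval lay within a 1.5-fold difference in either direction for 24 of 34, Aprt, Adk, Hprt, Paics and Pnp among them. Over all genes it did so for 15030 of 18193. The interval lay within 2-fold for 33 of 34 members, with Ampd2 as the exception, and for 17693 of 18193 genes. These intervals are not adjusted for the number of genes. The change was smaller than the SD within genotypes in 24 of 34 members. Further probe sets that differed in sign from the one used gave 0.024 for Ak1, -0.054 for Ak3, -0.056 for Gda, 0.033 for Nme1, 0.11 and 0.031 for Nt5c2, -0.051 for Nt5e, and -0.019 and -0.008 for Paics.

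Other purine genes were taken from a list of 64, of which 50 were measured. In limma 1 of the 50 passed the threshold, Mtap itself (-0.80, adjusted p = 0.0281), whose probe sets are given above. Leaving out 1 array kept its log2 change between -0.84 and -0.74, with an adjusted p from 0.0451 to 0.121. The adjusted p was above 0.05 without any 1 of MTAP+/- replicates 1, 3 and 4 or MTAP+/+ replicates 1, 2 and 3, with the replicate number as a block (0.112) and with dim genes left out (0.0589). At an unadjusted limma p under 0.05 stood 2 of 50 (4%), Mtap and Nme7, against 9.14% of all genes. Nme7, a member of the nucleoside diphosphate kinase family, read 7.03, 6.91, 7.39 and 7.43 in MTAP+/- and 6.58, 6.34, 7.12 and 6.88 in MTAP+/+ replicates 1 to 4, a log2 change of 0.46 ± 0.18 (SE, adjusted p = 0.461) with overlapping groups. The changes of the 50 ran from -0.80 to 0.46, with a median of -0.064, against -0.017 over all genes. Of the 50, 36 were below 0 (72%), against 54.7% of all genes.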

How the data were processed

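Per the labels' protocols, liver RNA was isolated with TRIzol, labelled with biotin and hybridised to 1 Affymetrix array per mouse. Probe set signals are deposited on the log2 scale, as the authors made them with RMA, per the submitters' processing notes. Its version and settings are not stated there, and the log2 scale was read from the values (1.64 to 14.72). RMA can compress differences of dim transcripts, which was not tested here, so folds near the lowest signals are uncertain in size. The number of arrays limits the precision.

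The table held 45101 probe sets, of which 64 controls were left out, and 34945 had 1 gene symbol in the platform annotation. Genotypes were compared with limma 3.58.1 in R 4.3.3 (lmFit and eBayes, two-sided, genotype as the only term) over 18193 genes, each read by its brightest probe set, with Benjamini-Hochberg adjustment and a threshold of 0.05. The test was checked on simulated data with independent normal noise in each gene. That check does not cover differences shared across genes. Per-animal scores were compared by exact permutation over 70 assignments. Every member is named, and all animals' values are given for Aprt, Hprt, Adk, Ada, Pnp, Xdh, the 12 members of smallest p and other list genes under 0.05. Other probe sets are given where they differed in sign or by over 0.3. Members and lists were chosen with earlier results of these data known. Promoters came from RefSeq (GRCm38.p6) for 35 of 37 members. Alternatives covered probe sets, dim genes, variance model, array weights, normalization, centring, the replicate block and each array left out.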

Additional observations from a re-analysis of the deposited data

Results flagged for a closer look

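Among 68 groups of 4 animals (34 genes in each genotype), 5 held an animal whose gap to the nearest of the others exceeded Dixon's 95% critical value, as a share of the group's range. Chance gives about 1 in 20. Adssl1 was highest in MTAP+/- replicate 2 (7.88, next 7.22). Nme2 was lowest in the same animal (11.97, next 12.50), and its log2 change was 0.056 without it. Ak1 was lowest in MTAP+/- replicate 3 (3.83, next 4.07), close to the array medians. Nt5e was lowest in MTAP+/- replicate 3 (5.27, next 5.75), and its change of 0.20 was 0.33 without it, 0.35 without MTAP+/+ replicate 3 and 0.12 without MTAP+/+ replicate 1. Slc29a1 was lowest in MTAP+/+ replicate 2 (7.45, next 8.04).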

How the results depend on the processing

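No member passed the threshold under any of the 16 alternatives (0 of the members measured in each, smallest adjusted p = 0.168, Adsl without MTAP+/- replicate 2, by limma). Members at an unadjusted p under 0.05 numbered 4 with dim genes left out, where Ada and Ampd3 were not tested and Prpsap2 was tested but lay at 0.0632 in limma, and 4 to 7 when 1 array was left out. The share of all genes at that p was not counted under the alternatives. Over all genes, the number past the adjusted threshold was 4 when the probe sets of a gene were averaged and 2 with dim genes left out. It was 16 for probe sets in place of genes, and 3 to 20 when 1 array was left out. Mtap, the 1 call among the other purine genes, became 0 after removal of dim genes and with the replicate block, and 0 to 1 when 1 array was left out (changes of -0.84 to -0.74); for the block and left-out arrays the cause was not tested. With the replicate number as a block 0 members and 6 genes in all passed the adjusted threshold. In that fit 7 members had an unadjusted limma p under 0.05, 6 of them shared with the fit as reported (Ampd2 gained, Prpsap2 lost). Same-numbered animals correlated at -0.10, 0.15, 0.030 and 0.14 in their deviations from the group means. Differently numbered pairs ran from -0.295 to 0.209. With so few pairs these values cannot decide whether a number marks a shared litter or batch, which the labels do not state. The sign held under every alternative for 19 members and turned under at least 1 for 15, all with a change of at most 0.21 in size. With all arrays kept it turned for Ppat (0.004) and Paics (-0.005) with the mean of probe sets, for Paics (-0.019), Ak1 (0.024) and Nt5c2 (0.11) without probe sets marked s, x or a, and for Adss (0.004) with array weights, the cause not tested. Leaving out 1 array gave -0.095 to 0.097 for Pfas, -0.041 to 0.060 for Paics, -0.20 to 0.069 for Atic, -0.14 to 0.070 for Adss, -0.23 to 0.016 for Adssl1, -0.11 to 0.037 for Aprt, -0.023 to 0.098 for Adk, -0.22 to 0.028 for Nme1, -0.15 to 0.056 for Nme2, -0.16 to 0.045 for Nt5c2, -0.023 to 0.090 for Nt5c, -0.022 to 0.12 for Gda, -0.21 to 0.025 for Xdh. No detection calls were used, so low signals such as those of Ampd3 and Ada are the least certain.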
